A study of Mus musculus with 6 samples.

Results

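Histone genes were examined in mouse Ba/F3-N cells after exposure to N-arachidonoyl dopamine (NADA), as 2 classes: the clustered, replication-dependent genes and the variant genes. Members were the genes whose symbol, current or older, begins with Hist1h, Hist2h, Hist3h or Hist4h (clustered) or with H1f, H2af or H3f (variant). Most of these symbols have been replaced (Hist1h1c is now H1f2, Hist3h2a is now H2aw, H2afz is now H2az1), so the older ones were found through a RefSeq gene table. A gene with any clustered symbol was put with the clustered genes: H1f2, H1f4 and H1f6 would be variants by their current symbols, and current symbols alone would find 11 probe sets of 8 genes. H2al2a entered only through an older symbol that it shares with another gene. Only probe sets paired with 1 gene were taken, which gave 35 probe sets of 24 genes among 45037 probe sets on the array: 16 of 11 clustered genes and 19 of 13 variant genes. RNA from 6 samples was measured on Affymetrix Mouse Genome 430 2.0 arrays, 3 samples from cells given 1 µM NADA for 12 hours and 3 from cells given the same volume of vehicle for 12 hours. Ba/F3-N is a mouse bone marrow line that carries the oncogenic NRAS-G12D in both groups. NADA is a lipid in which dopamine is joined to arachidonic acid, and it is known to act on cannabinoid receptors and the TRPV1 channel. The labels name no culture, clone or batch, so p-values speak only of the spread among arrays, possibly a technical one, and the number of arrays limits the precision.

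Histones package DNA into nucleosomes, whose core holds H2A, H2B, H3 and H4, while the linker histone H1 binds the DNA between them. The clustered genes are transcribed mainly in S phase, when new chromatin is built behind replication forks. Their transcripts typically end in a stem-loop instead of a poly(A) tail, and the stem-loop binding protein SLBP governs their processing, translation and decay. Variant genes typically lie alone in the genome, carry introns in many cases, give polyadenylated transcripts and are made throughout the cell cycle. Not every member follows this contrast. The clustered H1f6 encodes a testis form, and the variants H1f7, H1f8 and H2al2a are germ cell genes. Several clustered genes can also give polyadenylated transcripts, which is known from cells that stop dividing or differentiate. The labelling kit named in the labels belongs to the kits that copy RNA from an oligo(dT) primer, so the arrays report mainly transcripts with a stretch of A, and a change in total histone RNA cannot be told apart here from a change in its tailed share.

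The 250 bases before 1 RefSeq transcript start of 7 genes are printed, as promoters of genes whose values are contrasted next: 3 clustered genes that rose (H1f2, H2aw and H3c4), 1 clustered gene that was not called (H1f4), the paralogous variants H2az1 and H2az2, which moved in opposite directions, and the variant H3f3b, which rose. Sequences are from RefSeq, GRCm38.p6, on the gene's strand from 5′ to 3′. The windows are H1f2 (chr13:23738557-23738806, plus strand), H2aw (chr11:58954435-58954684, plus strand), H3c4 (chr13:23575513-23575762, plus strand), H1f4 (chr13:23622559-23622808, minus strand), H2az1 (chr3:137864237-137864486, plus strand), H2az2 (chr11:6444444-6444693, minus strand) and H3f3b (chr11:116024505-116024754, minus strand). Capitals mark CCAAT on either strand, the octamer ATTTGCAT on either strand (it reads ATGCAAAT on the other), and TATANA on the gene's strand where it starts 21 to 40 bases before the gene. TATANA matches can overlap each other and then appear as 1 run. For H3f3b the start used by the promoter table lies 1535 bases inside the gene's outer start, so its window is wholly within the gene, and for H2az2 68 of the 250 bases lie within it.
H1f2: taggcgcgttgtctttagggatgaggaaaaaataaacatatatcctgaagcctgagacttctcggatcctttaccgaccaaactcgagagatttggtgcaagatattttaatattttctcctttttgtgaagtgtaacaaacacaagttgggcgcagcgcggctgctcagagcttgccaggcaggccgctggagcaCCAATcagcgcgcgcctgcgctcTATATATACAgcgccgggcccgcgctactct
H2aw: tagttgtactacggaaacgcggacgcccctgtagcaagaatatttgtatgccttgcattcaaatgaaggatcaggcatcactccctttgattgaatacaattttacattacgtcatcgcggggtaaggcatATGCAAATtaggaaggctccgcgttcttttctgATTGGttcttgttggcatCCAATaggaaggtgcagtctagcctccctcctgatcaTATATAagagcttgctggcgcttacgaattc
H3c4: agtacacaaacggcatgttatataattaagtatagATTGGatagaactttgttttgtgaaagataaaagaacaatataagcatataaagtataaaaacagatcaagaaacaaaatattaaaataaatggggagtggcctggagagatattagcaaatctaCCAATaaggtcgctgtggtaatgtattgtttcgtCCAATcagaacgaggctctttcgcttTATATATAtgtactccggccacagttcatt
H1f4: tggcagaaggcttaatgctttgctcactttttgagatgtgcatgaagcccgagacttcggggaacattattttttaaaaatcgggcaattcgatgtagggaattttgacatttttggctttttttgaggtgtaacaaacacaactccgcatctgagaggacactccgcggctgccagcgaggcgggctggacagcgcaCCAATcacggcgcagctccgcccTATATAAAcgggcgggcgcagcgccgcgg
H2az1: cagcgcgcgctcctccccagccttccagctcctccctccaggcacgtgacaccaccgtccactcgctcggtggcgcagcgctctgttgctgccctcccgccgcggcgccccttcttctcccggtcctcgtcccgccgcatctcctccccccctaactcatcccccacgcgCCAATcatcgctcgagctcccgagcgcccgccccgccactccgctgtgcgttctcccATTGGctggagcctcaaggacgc
H2az2: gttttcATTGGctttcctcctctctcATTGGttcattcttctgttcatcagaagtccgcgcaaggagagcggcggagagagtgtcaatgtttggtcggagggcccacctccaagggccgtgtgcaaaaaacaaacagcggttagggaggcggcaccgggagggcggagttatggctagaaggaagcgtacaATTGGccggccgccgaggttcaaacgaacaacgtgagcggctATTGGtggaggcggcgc
H3f3b: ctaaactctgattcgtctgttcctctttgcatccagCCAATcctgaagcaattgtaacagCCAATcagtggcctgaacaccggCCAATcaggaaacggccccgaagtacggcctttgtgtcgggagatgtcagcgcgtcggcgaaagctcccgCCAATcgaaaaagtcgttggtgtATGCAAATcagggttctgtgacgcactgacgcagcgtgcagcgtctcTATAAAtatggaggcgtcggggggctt

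Of the 24 member genes 20 had a promoter window in that table, 9 clustered and 11 variant, each with 1 start. The window lay wholly before the gene in 15 of them and partly or wholly within it in 5 (H2bc22, H2az2, H3f3b, Macroh2a1 and Macroh2a2). CCAAT was found in 9 of the 9 clustered windows and 6 of the 11 variant windows, against 33.8% of all 32851 windows. TATANA 21 to 40 bases before the start used was found in 5 of 9 clustered windows and in 1 of 11 variant windows, that of H3f3b inside the gene, against 3.08% of all windows. The octamer was found in 2 clustered windows (H2aw and H2bc18) and 1 variant window (H3f3b), against 1.6% of all. The promoter of H1f4, a gene that was not called, holds CCAAT and TATANA as that of H1f2 does. These matches describe letters in the windows and were not tested for function.

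Among probe sets paired with 1 gene, clustered histone transcripts were mostly higher in NADA-treated cells. Variant transcripts moved both ways and mostly by less than 1.5-fold. No H4 gene is among these members. Of the 18 probe sets that pair only with several clustered genes 10 rose, 1 fell and 7 were not called (median 0.29). By limma, with Benjamini-Hochberg adjustment over all 45037 probe sets, 14 of the 16 clustered probe sets rose and 0 fell, 2 were not called, and the median log2 fold change was 1.00. At an unadjusted p under 0.05 the clustered counts were also 14 higher and 0 lower. Of the 19 variant probe sets 3 rose, 6 fell and 10 were not called, with a median of -0.10. Over all probe sets 20.0% were called higher and 19.8% lower, with a median of 0.02. Thus the clustered share called higher, 87.5%, stood above the background, while the variant shares, 15.8% higher and 31.6% lower, lay nearer to it. A difference of 2-fold or more with a call was seen upward in 8 clustered and 0 variant probe sets, against 2.44% of all probe sets. The 3 NADA values did not overlap the 3 vehicle values in 14 clustered and 10 variant probe sets, against 47.8% of all. In a bulk sample, more cells with a transcript and more of it per cell cannot be told apart.

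Scaling the arrays by the bacterial poly-A controls spiked into each lowers each log2 fold change by 0.58, because these controls were 1.49-fold brighter on the NADA arrays. The median of all probe sets then lay at -0.56, and 3.50% of them were called higher and 82.4% lower. The same value is subtracted from every probe set of an array, so an error in it is shared and these calls move together. Under that scaling 10 clustered probe sets remained higher and 2 (H1f4 and H1f6) became lower, with a clustered median of 0.42. No variant probe set was then called higher (0 of 19), 14 were called lower, and the variant median was -0.68. The distance between the class medians is the same under both scalings by construction. Directions given from here on are relative to the bulk of probe sets, with the values as deposited, and the members whose direction this scaling turns are named. They are H1f2 (its dimmest probe set), H1f6, H2ac19 (both probe sets), H3f3a and the dim variants H1f7 (1 of 2 probe sets), H1f8 and Macroh2a3 (1 of 2).

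**Figure D1:**
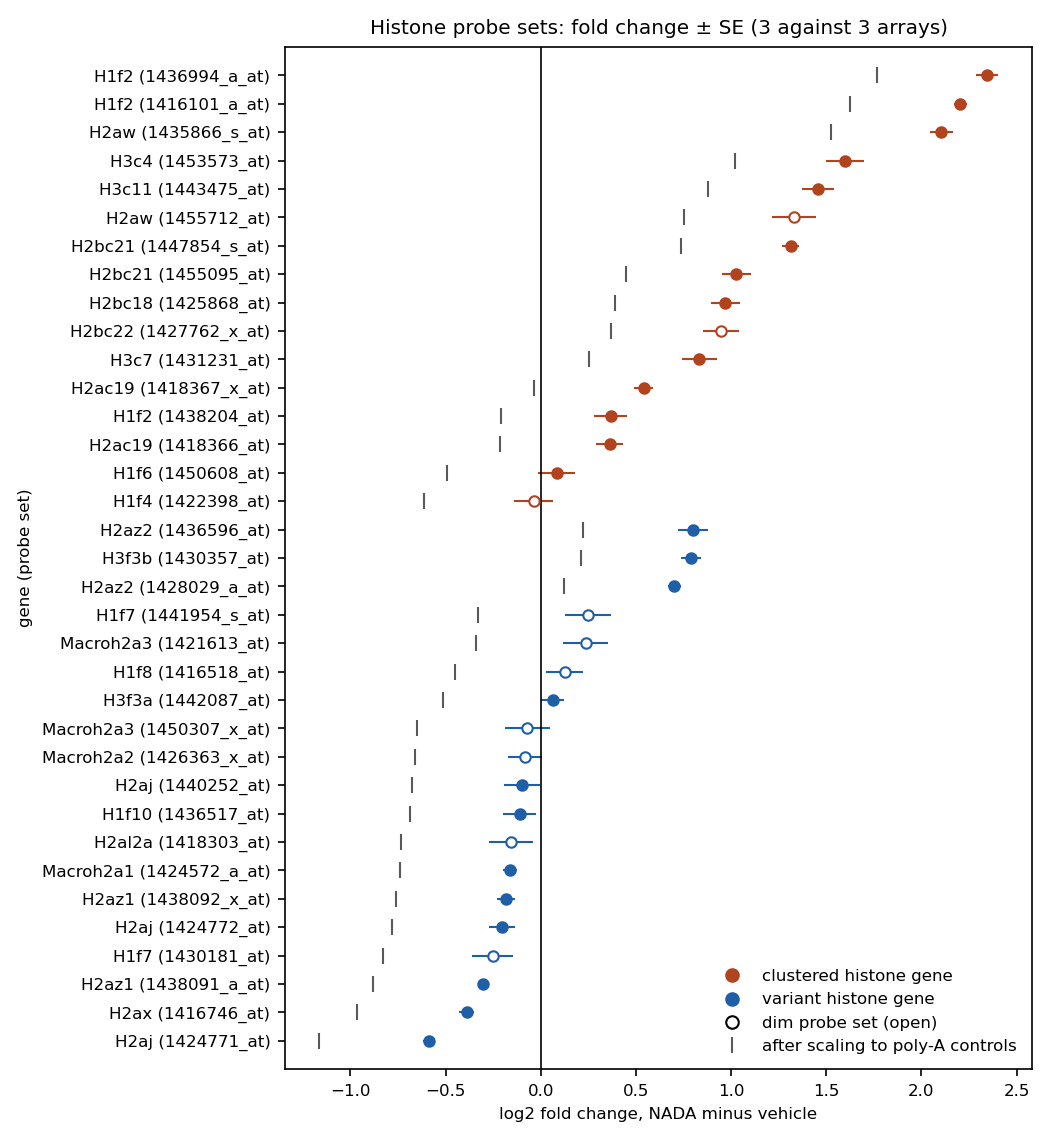
Log2 fold change (NADA minus vehicle, x axis) of each of the 35 histone probe sets (y axis), with bars for the standard error (3 arrays per group). Clustered genes are red, variants blue, dim probe sets open, and grey ticks give the value after scaling to the poly-A controls, which takes 8 probe sets from above to below 0: both of H2ac19, the dimmest of H1f2, and 1 each of H1f6, H3f3a, H1f7, H1f8 and Macroh2a3. Clustered genes reach 2.35, and variants lie between -0.59 and 0.80.

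Among the linker histones H1f2, which encodes the replication-dependent H1.2, showed the widest difference of any member gene. Its first probe set read 5806, 5609 and 5346 in NADA and 1238, 1204 and 1193 in vehicle. The NADA values lay far above the vehicle values, and the gene rose 4.61-fold (log2 2.20 ± 0.03 SE, limma adjusted p = 1.28e-15). A second probe set of H1f2 read 2308, 2205 and 2672 against 463, 485 and 461, a 5.08-fold rise (log2 2.35 ± 0.06). The third was near the dim limit, an intensity of 39.01 that is the median of all probe sets. It read 52.9, 50.6 and 56.7 against 44.5, 41.1 and 38.8, so the 3 probe sets of this gene agreed in direction and not in size (log2 0.37 ± 0.09, adjusted p = 0.00251). With a floor of 50 before log2 this probe set was no longer called (0.09), and scaling to the poly-A controls turned it to -0.21.

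The other clustered H1 genes behaved differently. H1f6, which encodes the testis form H1t, read 42.3, 45.3 and 54.2 in NADA and 43.6, 46.1 and 43.2 in vehicle. These ranges overlapped and the gene was not called (log2 0.08 ± 0.10, adjusted p = 0.562). H1f4, which encodes H1.4, was dim, at 23.0, 19.9 and 19.3 against 22.2, 19.9 and 21.4 (log2 -0.04 ± 0.10, adjusted p = 0.838). Both genes lie on chromosome 13 in the same stretch of the histone cluster as H1f2 (H1f4 at chr13:23621777-23622558, H1f6 at chr13:23695811-23696545 and H1f2 at chr13:23738807-23739531). After scaling to the poly-A controls H1f6 was called lower (-0.49), as was H1f4 (-0.61).

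Both clustered H2A genes with a probe set of their own were higher. H2aw (chr11:58954685-58955192), a core H2A gene of the small cluster once named Hist3, read 310.4, 312 and 296 in NADA and 71.6, 72.5 and 69.2 in vehicle. The groups were widely apart, and the rise was 4.30-fold (log2 2.11 ± 0.06, adjusted p = 1.90e-13). Its dim probe set read 37.5, 31.2 and 27.7 against 13.2, 13.1 and 11.7 and rose by 1.33 ± 0.12 on the log2 scale. With 32 added before log2, which damps dim values, the 2 probe sets gave 1.71 and 0.52.

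H2ac19 (chr3:96239779-96240374), a core H2A gene with a close copy beside it, changed less. One of its probe sets read 306, 296 and 299.8 against 208, 209 and 203, and the other read 280.2, 236 and 294 against 217, 205 and 206. In both the lowest NADA value lay above the highest vehicle value, with rises of 1.45-fold (adjusted p = 1.75e-07) and 1.29-fold (adjusted p = 6.47e-04). After scaling to the poly-A controls both turned slightly negative (-0.04 and -0.22) and neither was called. The second lost its call with a floor of 50 (adjusted p = 0.068), with the same log2 fold change (0.36).

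All 3 clustered H2B genes rose, by similar factors. H2bc21 (chr3:96221072-96223738), whose RefSeq gene spans 2667 bases against 483 to 903 for 9 of the 11 clustered genes, read 569, 556 and 539.7 in NADA and 221, 224 and 225 in vehicle. The values did not come near each other, and the rise was 2.48-fold (log2 1.31 ± 0.05, adjusted p = 2.46e-12). A second probe set of H2bc21 read 132, 128 and 128 against 69.5, 62.5 and 58.8, a 2.04-fold rise. H2bc18 (chr3:96269700-96270192) read 72.4, 75.2 and 71.8 against 37.4, 38.0 and 36.5, a 1.96-fold rise (log2 0.97 ± 0.08). H2bc22 was dim in both groups, at 34.0, 32.3 and 31.8 against 18.4, 16.6 and 16.0, and rose 1.93-fold. With a floor of 50 its only probe set lies at the floor on every array and is not called, as is the dim probe set of H2aw. H2bc22 is listed over 14079 bases in the same table.

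The 3 clustered H3 genes, all on chromosome 13, rose as well. H3c4 (chr13:23575763-23576266) read 303, 363 and 318 in NADA and 130.2, 95.3 and 101 in vehicle. The vehicle samples spread more here than for the H2B genes, yet all lay below the NADA samples (3.03-fold, log2 1.60 ± 0.10, adjusted p = 1.33e-09). H3c11 (chr13:21782915-21783397) read 84.2, 79.1 and 83.7 against 27.4, 30.4 and 32.4, a 2.74-fold rise (log2 1.46 ± 0.09). H3c7 (chr13:23544052-23544954) read 101, 103 and 96.6 against 59.6, 48.0 and 62.6, a 1.78-fold rise that was not called after scaling to the poly-A controls (log2 0.25, adjusted p = 0.0824). H3c4, H3c7 and H3c11 encode nearly the same replication-dependent H3 protein, and probe sets of such close copies may share signal.

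**Figure D2:**
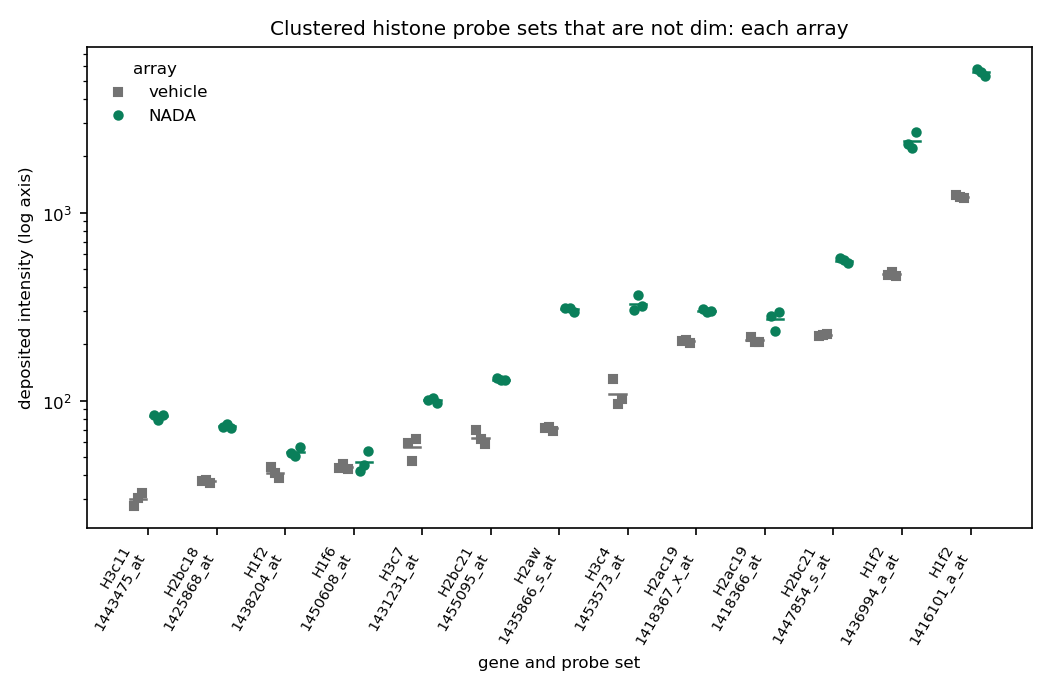
Deposited intensity (y axis, log scale) on each array for the 13 clustered histone probe sets that were not dim (x axis), vehicle as grey squares and NADA as green circles, with the group mean as a bar. The groups separate in 12 of the 13, and only the values of H1f6 overlap. After scaling to the poly-A controls the fold changes of H1f6, both H2ac19 probe sets and the dimmest H1f2 probe set turn negative.

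By position, the clustered genes fell into 3 groups. On chromosome 13, 7 of 9 probe sets of 7 genes rose, with values from -0.04 to 2.35 and a median of 0.95. On chromosome 3, 5 of 5 probe sets of 3 genes rose, from 0.36 to 1.31 with a median of 0.97, and on chromosome 11 both probe sets of H2aw rose. At the level of genes, 9 of 11 clustered genes were higher in each of their probe sets and 2 were not called. Over all probe sets 20.0% were called higher, and over the brightest probe set of each gene 22.1%. Leaving out probe sets of the types s and x, which can bind several transcripts, 10 of 12 clustered probe sets rose. Of all probe sets left in that fit 19.5% were called higher.

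Many clustered genes are so alike that the annotation pairs a probe set with several of them, and these probe sets are not members. The 18 that pair only with clustered histone genes did not all rise: 10 rose, 1 fell and 7 were not called, with a median of 0.29. Over all probe sets 20.0% were called higher and 19.8% lower. For H2B 5 of 6 rose, up to 5.42-fold in a probe set of 6 genes that read 260.1, 234 and 238 against 40.9, 43.3 and 51.2. For H3 4 of 5 rose. For H4 0 of 5 were called by limma, and 0 of 5 also at an unadjusted p under 0.05. Of these H4 probe sets 3 were dim, and of all dim probe sets on the array only 11.6% were called. The brightest H4 probe set, of 13 genes, read 328, 322 and 278 in NADA and 309, 275 and 284 in vehicle, with overlapping groups (log2 0.10 ± 0.07). After scaling to the poly-A controls all 5 H4 probe sets lay below 0. For H2A 1 rose and 1 fell. The H2A probe set that fell pairs with 10 genes and read 12107, 12037 and 12116 against 13257, 13506 and 13364, a change of -0.15 ± 0.02 on the log2 scale (adjusted p = 1.74e-05).

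Among the variants, the 2 genes of H2A.Z, a variant that marks promoters and other regulatory chromatin, moved in opposite directions. H2az1 (chr3:137864487-137866922) read 4511, 4537 and 4618 in NADA and 5592, 5752 and 5529.5 in vehicle. The NADA samples were all lower, and the gene fell 1.23-fold (log2 -0.30 ± 0.03, adjusted p = 7.94e-08). Its second probe set, of type x, read 3745, 3697 and 4241 against 4395, 4657 and 4182, which overlap, and fell by 0.18 on the log2 scale. This second call was lost without the intensity trend (adjusted p = 0.1) and with a floor of 50 (adjusted p = 0.212), with the same log2 fold change.

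H2az2 (chr11:6427226-6444511) read 2790, 2738 and 2668 in NADA and 1707, 1709.6 and 1624 in vehicle. All NADA values lay well above all vehicle values, a 1.63-fold rise (log2 0.70 ± 0.03, adjusted p = 6.52e-11). A second probe set read 124, 126 and 134 against 65.5, 77.3 and 78.7, a 1.74-fold rise. After scaling to the poly-A controls H2az2 stayed positive (0.12 and 0.22) without a call (adjusted p = 0.362 and 0.116), whereas H2az1 stood at -0.88 and -0.76.

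H2ax, whose protein is phosphorylated around DNA breaks, fell. It read 769, 774 and 727 in NADA and 1011, 972 and 989 in vehicle, with no overlap (1.31-fold lower, log2 -0.39 ± 0.04, adjusted p = 6.07e-07). H2aj, an H2A variant gene outside the clusters, read 1492, 1468.5 and 1469.5 against 2171, 2193 and 2291. The NADA samples sat close together below the vehicle samples, and the fall was 1.5-fold (log2 -0.59 ± 0.03, adjusted p = 4.94e-10). A second H2aj probe set read 93.7, 95.9 and 91.9 against 102, 114 and 108 and fell by 0.20 on the log2 scale (adjusted p = 0.0257). Leaving out 1 array ended this second call in 4 cases: without NADA replicate 1 (-0.20, adjusted p = 0.0545), without NADA replicate 3 (-0.19, 0.0519), without vehicle replicate 2 (-0.16, 0.120) and without vehicle replicate 3 (-0.20, 0.0719). The third H2aj probe set, near the dim limit, read 49.1, 49.1 and 42.9 against 47.7, 47.4 and 56.2 and was not called (log2 -0.10).

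Macroh2a1 encodes macroH2A, an H2A variant with a large extra domain that is found in repressed chromatin. It read 1946, 1962 and 1809 in NADA and 2095, 2092.5 and 2199 in vehicle, a small fall with no overlap (1.12-fold lower, log2 -0.16 ± 0.04, adjusted p = 0.00242). The call was lost without the intensity trend (adjusted p = 0.0717) and with a floor of 50 (adjusted p = 0.066), with the same log2 fold change.

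The variant H3.3, which is placed in chromatin outside replication, is encoded by H3f3a and H3f3b. H3f3b read 643, 708 and 655 in NADA and 388, 367 and 406 in vehicle, with no overlap, and rose 1.73-fold (log2 0.79 ± 0.05, adjusted p = 2.98e-09; 0.21 and adjusted p = 0.0895 after scaling to the poly-A controls). H3f3a read 225, 209.5 and 209.5 against 219, 203 and 194, with overlapping groups, and was not called (log2 0.06 ± 0.06, adjusted p = 0.471). After that scaling H3f3a turned to -0.51 and was called lower. Another 5 probe sets pair with both genes and with related genes, and their log2 fold changes ran only from -0.14 to 0.20, with 2 higher and 1 lower, and all 5 lay below 0 after that scaling. None of these 5 showed a rise near the 1.73-fold of the H3f3b probe set. They were also brighter, with mean intensities from 2691 to 8869 against 528 for that probe set.

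The remaining variants were low. The linker histone gene H1f10 read 52.3, 47.2 and 57.5 against 56.6, 55.1 and 57.2 and was not called (log2 -0.11). The other 7 variant probe sets, of the germ cell genes H1f7, H1f8 and H2al2a and of Macroh2a2 and Macroh2a3, had mean intensities from 5.71 to 27.8 and log2 fold changes from -0.25 to 0.25. By limma 0 of these 7 were called, and 1 (H1f7) had an unadjusted p under 0.05. Of all dim probe sets on the array 11.6% were called.

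**Figure D3:**
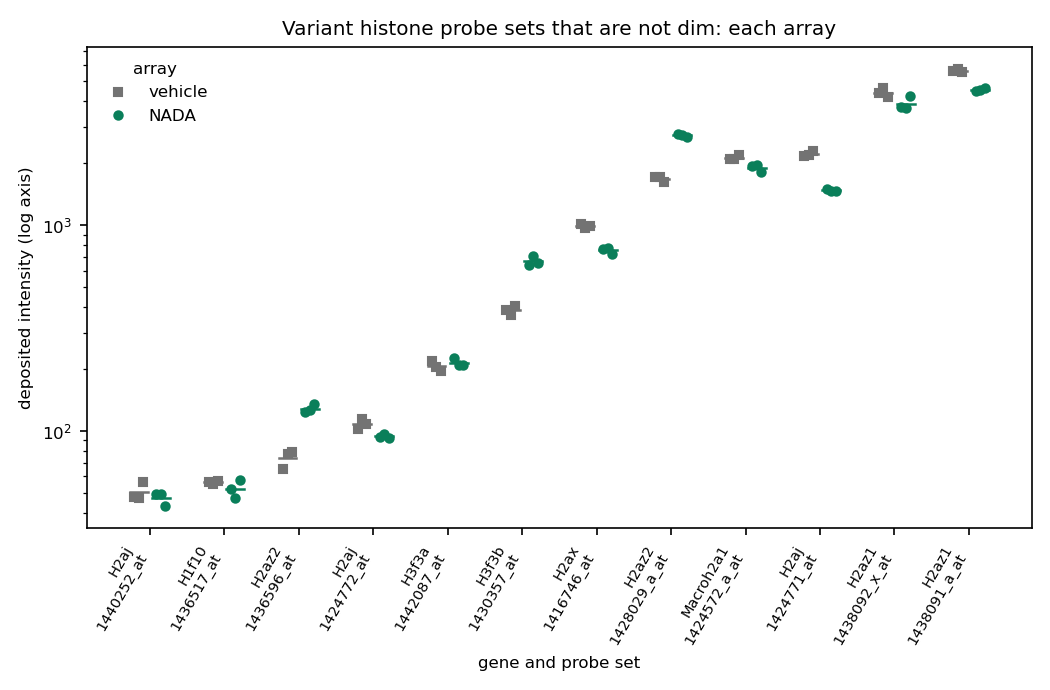
Deposited intensity (y axis, log scale) on each array for the 12 variant histone probe sets that were not dim (x axis), vehicle as grey squares and NADA as green circles, with the group mean as a bar. H2az2 and H3f3b lie higher in NADA, H2aj, H2ax, H2az1 and Macroh2a1 lower. The first probe set of H2aj falls from a mean of 2218.5 to 1477.

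By array, the class medians were close within each group. The median difference of the 16 clustered probe sets from their vehicle means was 1.03, 1.01 and 0.98 (log2) on the NADA arrays and 0.04, 0.00 and -0.03 on the vehicle arrays. For the 19 variant probe sets it was -0.09, -0.10 and -0.02 against 0.01, -0.02 and 0.00. Among probe sets that were not dim, 12 of 13 clustered were called higher, against 33.0% of all such probe sets, and 6 of 12 variant were called lower, against 35.2%. Taking only the brightest probe set of each gene, 9 of 11 clustered genes rose, and 2 of 13 variant genes rose while 4 fell, against 22.1% higher and 22.0% lower over the brightest probe sets of all genes.

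Genes that serve histone supply were read from the brightest probe set of each gene. In the 5 lists that follow none was dim, and among all probe sets that were not dim 33.0% were called higher and 35.2% lower. All 31 measured genes of S phase and DNA replication, the period in which clustered histone genes are normally transcribed, fell, with a median of -1.09. Rrm2, a subunit of the enzyme that makes deoxynucleotides, read 1101.5, 1131 and 1128 in NADA and 3810, 3755 and 3851 in vehicle (log2 -1.76). The helicase subunits Mcm2 (-1.44) and Mcm3 (-1.28) and the dUTPase Dut (-1.40) fell with it. The fall of this list was known from earlier results on these arrays and is given only beside the histone values.

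Of 22 measured genes of histone transcript synthesis and 3′ end processing 14 fell, 4 rose and 4 were not called, with a median of -0.29. Slbp, the stem-loop binding protein gene, read 1684, 1633 and 1482.5 in NADA and 2617, 2554 and 2571 in vehicle. The groups did not overlap, and Slbp fell by 0.69 ± 0.04 on the log2 scale (adjusted p = 1.09e-09). Npat, which activates clustered histone genes at the start of S phase, read 387, 352 and 368 against 422, 468 and 444 (log2 -0.27 ± 0.05, adjusted p = 5.88e-04). Coilin (Coil, -1.03), the cleavage factor gene Cstf2 (-0.72) and the cap-binding gene Ncbp1 (-0.78) also fell.

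Among 10 genes of histone transcript decay and translation 5 fell and 3 rose (median -0.17), shares near those of all probe sets that were not dim. Eri1, the exonuclease that trims the stem-loop, read 772, 701 and 644 against 1064, 1056 and 1067 (log2 -0.59 ± 0.05), and Lsm1 (-0.75) and Dcp2 (-0.51), both of mRNA decapping, fell too. Tut7, which adds uridines to histone transcripts before decay, rose by 0.72 ± 0.04 (1123, 1112 and 1075 against 699.8, 655 and 660.3). It stood at 0.14 after scaling to the poly-A controls and was not called (adjusted p = 0.274). Of 10 genes of nuclear poly(A) synthesis and poly(A) binding 7 fell and 2 rose (median -0.22), among them Pabpn1 (-0.60), Pabpc4 (-0.65), the poly(A) polymerase Papola (-0.35) and Cpsf6 (-0.57).

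Of 30 genes listed for histone chaperones and deposition 21 fell and 4 rose, with a median of -0.44. Nasp, which holds soluble H3 and H4, read 390.4, 373 and 379 in NADA and 1341, 1381 and 1369 in vehicle (log2 -1.84 ± 0.04, adjusted p = 1.63e-14). Set (-1.12), Supt16 of the FACT complex (-0.88) and Dnajc9 (-0.97) fell as well. Cenpa, the centromeric H3 variant, is counted among these 30 genes, and the histone symbols above do not cover it. It fell by 0.19 ± 0.03 (1680.1, 1817 and 1730.0 against 2001, 1979 and 1981).

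**Figure D4:**
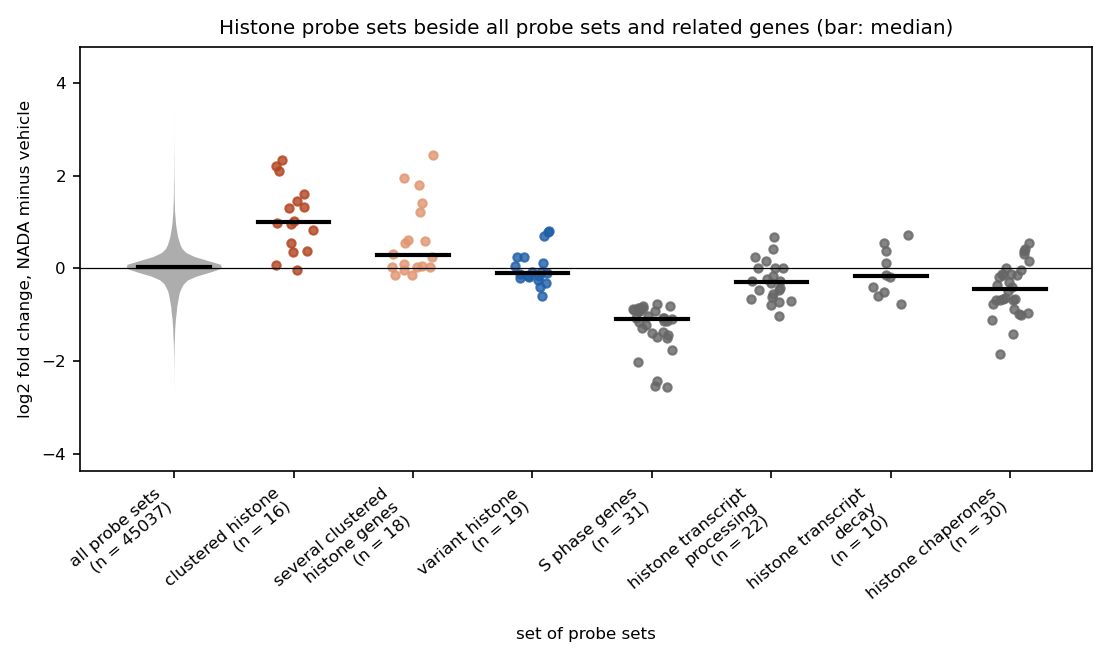
Log2 fold change (NADA minus vehicle, y axis) for all 45037 probe sets (grey shape), for the clustered, several-gene clustered and variant histone probe sets, and for 4 lists of related genes by the brightest probe set of each gene (points), with medians as black bars. The clustered median is 1.00 and the S phase median -1.09. Scaling to the poly-A controls lowers every point by 0.58 and turns the several-gene median from 0.29 to -0.29.

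Several measures of the arrays moved with treatment beside these results. The mean log2 intensity of the poly-A controls was 8.72 ± 0.21 (SD, n = 3) in NADA and 8.14 ± 0.01 in vehicle. That of the hybridization controls was 10.08 ± 0.05 and 9.93 ± 0.10. The log2 ratio of the 3′ to the 5′ probe sets of Actb was 1.06 ± 0.05 and 0.67 ± 0.04, and that of Gapdh was -0.07 ± 0.06 and -0.22 ± 0.03. In each of these measures NADA and vehicle arrays stood apart, with p = 0.1 in an exact permutation test (two-sided), which cannot go lower with 3 against 3 arrays. Among markers of other cells, 3 of 5 for macrophages and granulocytes rose (Adgre1, Cd68 and the dim Mpo). The 5 together summed to 609.6 to 647 in NADA and 338 to 374 in vehicle. The poly-A scaling turned Mpo negative and left Cd68 at 0.07 without a call, while Adgre1 (0.79) stayed called higher. Of 3 erythroid markers 1 rose (Klf1), with sums of 186 to 209.8 in NADA and 112 to 115.5 in vehicle. Klf1 also stayed called higher under the poly-A scaling (0.47). Over the brightest probe sets of all genes 22.1% were called higher. Of T cell, fibroblast and epithelial markers 0 of 14 were called by limma, and 1, Cd4, had an unadjusted p under 0.05. The part of these differences in the histone results was not tested. Of 11 markers of pro-B cells and cytokine receptors 5 rose, among them Ptprc and Csf2rb, while Cd79a, Vpreb1, Kit, Pax5 and Ebf1 were dim in the 6 arrays. Under the poly-A scaling Csf2rb (1.18) and Csf2rb2 (1.77) stayed called higher. Ptprc then lost its call (0.10), and Il3ra (-0.06) and Cd79b (-0.12) turned negative.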

How the data were processed

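The authors' deposited table gives linear intensities for 45101 probe sets on 6 arrays, from 2.19 to 20113. MAS5 and RMA appear in the submitters' processing notes without a stated role. Array medians ran from 37.95 to 39.11, so the values were used as normalized, on the log2 scale. Without 64 controls, 45037 probe sets remained, 34945 of them paired with 1 gene. Older symbols came from RefSeq (GRCm38.p6) by gene ID. Every probe set entered a limma 3.58.1 fit (R 4.3.3; eBayes with intensity trend, two-sided, no covariates or dim filter), tested on simulated data. Calls are at adjusted p under 0.05 (Benjamini-Hochberg), and ± is the SE. Dim means a mean intensity under 39.01, the median.

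Members and lists were chosen with earlier results of these data known. All members that were not dim and the called dim ones are named, and list genes by smallest p or role (Slbp, Npat, Eri1, Cenpa). The uncalled dim members, several-gene probe sets and any other gene outside this rule were picked after their values were seen. Alternatives covered normalization, scaling, low values, filters, model, thresholds, replicate blocks and left-out arrays. Plots used matplotlib 3.10.9.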

Additional observations from a re-analysis of the deposited data

How the results depend on the processing

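The clustered count of 14 higher and 0 lower was the same under quantile normalization, median centring, 32 added before log2, array weights, no intensity trend, an adjusted p under 0.01 and each array left out (14 to 14 higher, 0 to 0 lower). It was 7 of 7 with the dim filter at the 70th percentile and 9 of 11 with the brightest probe set per gene, where fewer members remain. It was 10 of 16 with a floor of 50 and 11 of 16 with a minimum of 1.5-fold. Over all probe sets 20.0% were called higher as reported and 13.4% with the floor. Over those kept, 38.7% were called higher with that filter and 22.8% with the brightest probe set per gene. Without one array the variant counts ran from 3 to 4 higher and from 5 to 6 lower. Scaling to the poly-A controls gave 2 clustered lower, 0 variant higher and 14 of 19 variant lower, where 82.4% of all probe sets were called lower. Variant falls numbered 3 with a floor of 50, where 14.9% of all probe sets were called lower. With a minimum of 1.5-fold they numbered 1, since most are small. The falls that lost their call with the floor kept the same log2 fold change, so only their SE and p changed. They were the second probe sets of H2az1 (-0.18) and H2aj (-0.20) and that of Macroh2a1 (-0.16). The cause was not tested. Scaling to the poly-A controls reversed the log2 fold changes of H1f2 (its dimmest probe set, -0.21), H1f6 (-0.49), H2ac19 (-0.0373 and -0.22) and H3f3a (-0.51). Of 512 checks of 27 single probe sets under 20 alternatives, 29 lost and 4 gained a call, the reversed ones included. H1f6, not called, also changed sign without NADA replicate 3 (-0.0185).

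The same replicate numbers gave no sign of paired samples: deviations from group means correlated at 0.20, -0.10 and 0.02 (across 22519 probe sets). Unlike numbers reached similar sizes (NADA 3 with vehicle 2 at 0.21, NADA 3 with vehicle 1 at -0.22). Such values cannot show that the samples were unpaired. With the replicate number as a block the counts were 14, 0, 3 and 6, as without it. The mean intensity limits what can be seen in the 10 dim members.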
